A study of Homo sapiens with 24 samples.

Results

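The genes described here are the protein-coding genes of human chromosome 19 whose symbol is ZNF followed by a number, taken from the GENCODE annotation of GRCh37 with pseudogenes left out. There were 246 of them among 1480 protein-coding genes of the chromosome (16.6%) and among 509 protein-coding ZNF genes of the genome. Of these, 227 could be tied to a gene of the count files, which list 51715 genes, and the other 19 were not analysed here. A further 21 chromosome 19 entries with a ZNF symbol that are not protein-coding were left out.

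Most proteins of this kind pair a KRAB domain with a row of C2H2 zinc fingers, each finger holding a zinc ion between cysteine and histidine residues and reading a few bases of DNA. The KRAB domain recruits TRIM28 (KAP1), a scaffold that brings the histone methyltransferase SETDB1, HP1 proteins and deacetylase complexes, and many of these proteins silence transposable elements. The genes arose by tandem duplication and stand in clusters, so that neighbours along the chromosome are often close relatives.

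Poly(A) RNA was sequenced as total RNA and as cytoplasmic RNA from A-431, an epidermoid carcinoma line, U-251MG, a glioblastoma line, and U-2 OS, an osteosarcoma line, with no treatment named in the labels. Each of the 6 groups held 4 libraries, and the sum of gene counts per library ran from 19918911 to 32394170. Each group is a single established cell line. The study's methods describe the libraries of a group as biological replicates from separate cultivations, a link the labels do not give for single libraries, so p-values measure the spread between cultures of 1 line. In such bulk samples, fewer cells with a transcript and less of it per cell cannot be told apart.

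Checks of the whole series come first. KRT5, CDH1 and EGFR averaged 76.6, 553 and 16425.5 CPM (gene counts scaled to a common library size) in A-431 total RNA, FABP7 and SOX2 averaged 67.1 and 119.7 CPM in U-251MG, and COL3A1 averaged 86.4 CPM in U-2 OS. KRT14 was at 0.108 CPM in A-431 and at 9.70 CPM in U-2 OS, and RUNX2, SPARC and CDH11, listed as osteoblast markers, were higher in U-251MG than in U-2 OS. The nuclear RNAs MALAT1 and NEAT1 were lower in total than in cytoplasmic RNA in every line (MALAT1 at 12.02 against 32.8 CPM in A-431, 20.4 against 52.0 in U-251MG and 28.8 against 51.7 in U-2 OS), so the labelled fractions did not separate these RNAs in the direction of their location. U-2 OS cytoplasmic library 13, which the study's read totals do not list, had the highest NEAT1 of its group (1047 CPM, the other 3 at 587 to 814) and was left out of the fits. All total RNA libraries were run on 1 flow cell and all A-431 cytoplasmic libraries on another, so fraction and flow cell cannot be told apart in A-431.

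The coding sequences held a median of 13 zinc finger motifs (1 to 39 over the 245 genes with a complete coding sequence), and a KRAB-A-like stretch was found in 200 genes. The median GC content was 43.1%, against 48.6% over all protein-coding genes. The pair of 30-base stretches below was widely shared among these genes, and both are shown because they are part of the repeated unit of the finger array. In the first, capitals mark the codons around the cysteine pair of a finger, and in the second, those of the linker between fingers. Each is given once, as it stands in ZNF506 on the minus strand of GRCh37.
stretch 1 (chr19:19905990-19906019): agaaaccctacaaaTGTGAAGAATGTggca
stretch 2 (chr19:19905749-19905778): tcatACTGGAGAGAAACCCtacaaatgtga
Stretch 1 was found unchanged in 34 of 245 coding sequences with 152 copies in all, and stretch 2 in 33 with 118 copies. Despite these repeats, exon stretches of 100 bases, the read length, had no second exact copy in the genome for a median of 100% of positions in a gene. Copies that differ by a few bases were not counted, so reads may be harder to place than these shares show. The lowest share was 84.6%, and 4 genes were under 90%. Counting ignored strand, and 58 genes share exon bases with another gene, 11 of them (ZNF20, ZNF625, ZNF709, ZNF529, ZNF428, ZNF224, ZNF581, ZNF587, ZNF135, ZNF324 and ZNF446) over more than 20% of their length, so their values are less certain.

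Neighbouring members under 1 Mb apart formed 9 clusters of at least 5 genes, numbered here from the short-arm end, and 11 genes stood outside them. Cluster 4, at 19.78 to 24.31 Mb next to the centromere, held 37 genes, cluster 6 (36.67 to 38.31 Mb) held 26, cluster 8 (52.07 to 54.08 Mb) held 39 and cluster 9 (55.99 to 58.99 Mb) held 59. The others were cluster 1 with 5 genes, cluster 2 with 15, cluster 3 (11.59 to 12.75 Mb) with 25, cluster 5 with 5 and cluster 7 (44.03 to 45.58 Mb) with 24. The median GC content in cluster 4 was 38.5%.

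In total RNA the median level of the members was 5.51 CPM in A-431 (quartiles 0.595 and 11.5), 9.03 CPM in U-251MG (3.30 and 16.1) and 6.22 CPM in U-2 OS (2.15 and 15.1). For ZNF genes of other chromosomes the medians were 9.34, 9.54 and 12.5 CPM in the same order of lines. A mean of at least 1 CPM was reached by 165 members in A-431 (72.7%), by 189 in U-251MG (83.3%) and by 183 in U-2 OS (80.6%). Among the other protein-coding genes of chromosome 19 these shares were 57.2%, 51.7% and 61.0%. Among ZNF genes of other chromosomes they were 78.9%, 80.9% and 87.9%, above the members in A-431 and U-2 OS and below them in U-251MG. Together the 227 genes took 0.213% ± 0.00681 of the gene counts in A-431 total RNA, 0.264% ± 0.0117 of those in U-251MG and 0.272% ± 0.00400 of those in U-2 OS (SD, n = 4 each). The shares in A-431 lay below those of both other lines without overlap of the SDs.

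**Figure D1:**
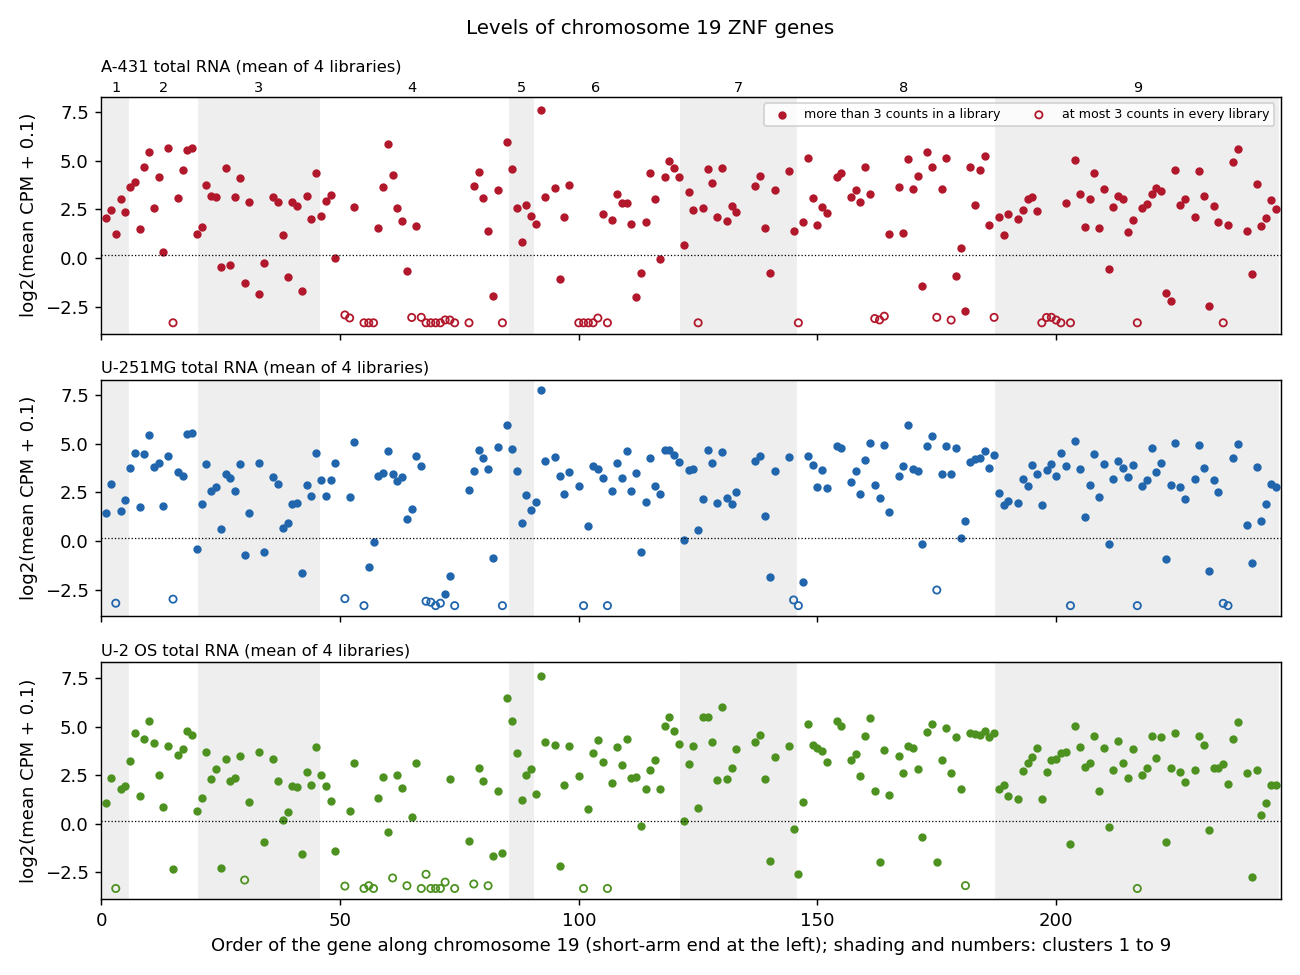
Each point is a gene, placed by its order along chromosome 19 (x axis) at its mean level in total RNA of 4 libraries (y axis, log2 of CPM plus 0.1), with A-431, U-251MG and U-2 OS in separate panels, shading for alternate clusters and a dotted line at 1 CPM. Open points have at most 3 counts in every library: 39 genes in A-431, 19 genes in U-251MG and 21 genes in U-2 OS, many of them side by side in cluster 4.

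ZNF146, which encodes a protein made of zinc fingers with no KRAB domain, stood far above the rest on the per-length scale at 45.4 CPM per kilobase of exon, averaged over the groups. In total RNA its level was 196, 185, 213 and 195 CPM in A-431, 203, 198, 210 and 243 CPM in U-251MG and 186, 195, 192 and 201 CPM in U-2 OS. The 3 lines overlapped, and ZNF146 was called in no comparison. The next members per length were ZNF358 at 10.5, ZNF317 at 8.44 and ZNF404 at 7.55 CPM per kilobase, named after their values were seen.

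The deposited RPKM values ordered the genes differently. Their 8 highest members were ZNF428, ZNF146, ZNF544, ZNF230, ZNF45, ZNF226, ZNF266 and ZNF561, of which 4 were also in the top 8 per kilobase, and Spearman's rho over the 227 genes was 0.753 (a description, genes are not replicates). ZNF428, with the highest mean RPKM (116), had only 11.4 CPM and shares 32.1% of its exon bases with another gene. The read numbers behind the RPKM were a median of 3.11 times the HTSeq counts of the same gene, and over 30 times for 8 members. ZNF737, ZNF99, ZNF345, ZNF585B and ZNF550 had 0 counts in all 24 libraries, which allows up to 3 counts in each, yet 4 of these 5 had reads in the RPKM files. Levels below are therefore taken from the counts.

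A gene was called present in a line at a mean of at least 1 CPM in total RNA and near zero at no more than 3 counts in every total RNA library. By this rule 154 members were present in all 3 lines, 10 were near zero in all 3 and 29 were present in none. The 10 include the 5 members with 0 counts in all 24 libraries, of which 4 had reads in the RPKM values, so their state may depend on how reads were counted. Near zero in 1 line but present in another were 21 members in A-431, 4 members in U-251MG and 7 members in U-2 OS. Of the 198 members present somewhere, these are 10.6%, 2.02% and 3.54%, and over all genes present somewhere the shares were 8.17% for A-431, 7.27% for U-251MG and 2.29% for U-2 OS (8.65%, 7.02% and 2.04% of protein-coding genes). The share in A-431 is thus close to that of all genes, that in U-251MG lower and that in U-2 OS higher, differences that were not tested. All 21 members of the A-431 list also had at most 3 counts in every A-431 cytoplasmic library, and 16 of them were present in both other lines.

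ZNF470 (chr19:57078837-57100279) had 0 counts in each A-431 total RNA library, against 21.6, 22.9, 21.8 and 24.5 CPM in U-251MG and 12.4, 11.4, 13.5 and 13.1 CPM in U-2 OS. A-431 lay below both without overlap, at least 189.5-fold lower than U-251MG and at least 105.1-fold lower than U-2 OS (against a floor of 3 counts over the group). ZNF568 (chr19:37407218-37495939), whose mouse relative Zfp568 represses a placental transcript of Igf2, likewise had 0 counts in A-431 total RNA, with 12.9, 13.9, 16.9 and 13.5 CPM in U-251MG and 12.3, 12.97, 12.6 and 12.04 CPM in U-2 OS. It was at least 119.6-fold lower than in U-251MG and at least 104-fold lower than in U-2 OS, and those 2 lines overlapped.

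ZNF331 (chr19:54022781-54083523), a KRAB gene that is imprinted in some tissues, had 0, 0, 0 and 0.0855 CPM in A-431, from 2 counts in all, against 22.9, 20.9, 23.7 and 16.1 CPM in U-251MG and 22.8, 27.1, 25.3 and 25.9 CPM in U-2 OS. Scaled for depth, its counts were 1046 times as high in U-251MG as in A-431 (95% counting interval 289 to 8640) and 1286.5 times as high in U-2 OS (356 to 10629). ZNF528 (chr19:52901102-52921665) had 0.0411, 0, 0.0651 and 0 CPM in A-431, against 25.9, 29.2, 35.8 and 31.9 CPM in U-251MG and 13.8, 12.1, 16.1 and 12.5 CPM in U-2 OS. The ratio of U-251MG to A-431 was 1043 (357 to 5061), and the 3 lines did not overlap for this gene.

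ZNF420 (APAK), described as a regulator of p53 through TRIM28, had 2 counts over the A-431 libraries, against 10.2, 13.1, 11.5 and 16.6 CPM in U-251MG and 18.6, 21.3, 19.1 and 20.8 CPM in U-2 OS. ZNF667 also had 2 counts in A-431, against 14.02, 15.4, 16.7 and 14.8 CPM in U-251MG and 9.23, 8.79, 9.54 and 10.5 CPM in U-2 OS. For both genes no library of 1 line reached the values of another. ZNF431 took the opposite course, with 21.2, 17.7, 21.7 and 17.7 CPM in A-431 and 9.71, 10.1, 12.4 and 11.4 CPM in U-251MG, against 0.0429, 0, 0.0709 and 0.0678 CPM in U-2 OS (5 counts in all).

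**Figure D2:**
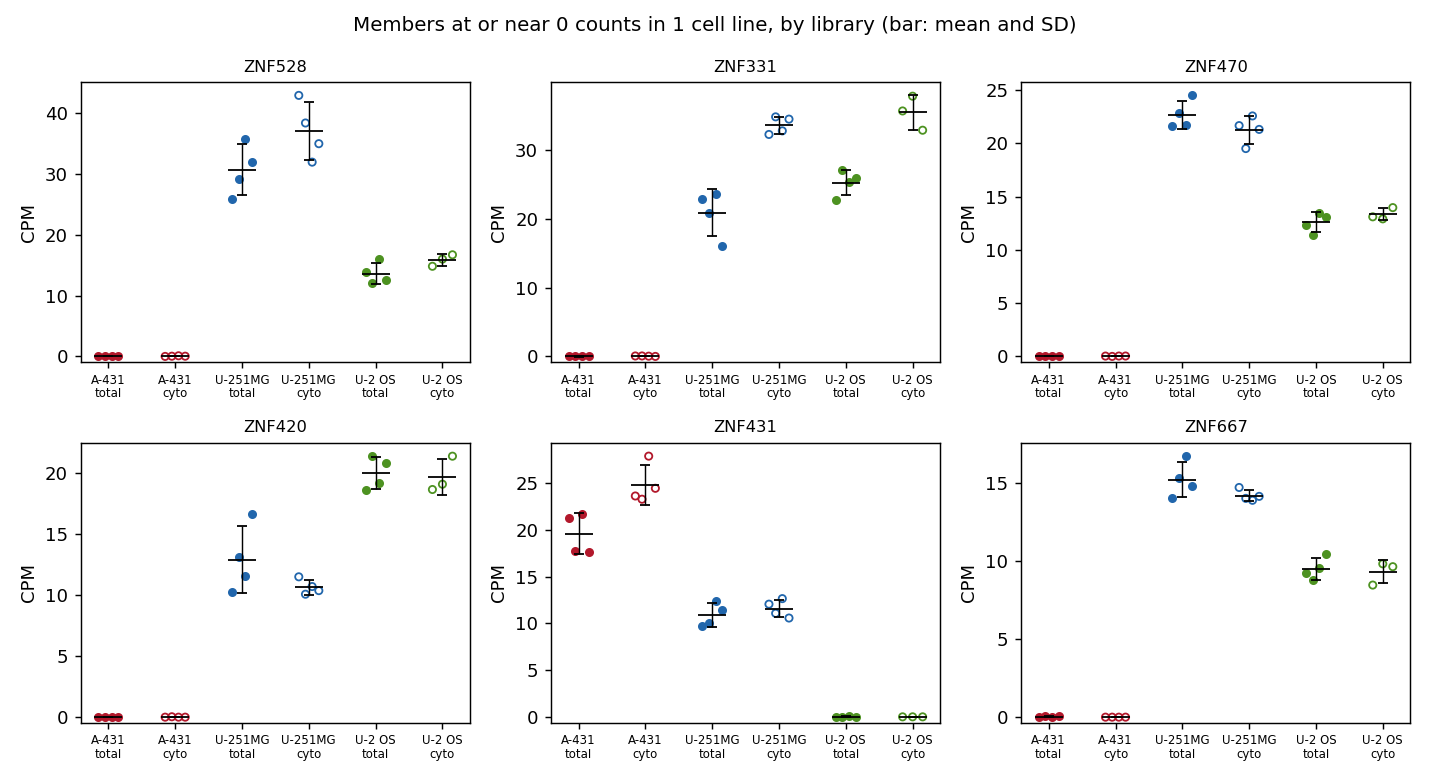
CPM of the 6 members that are near zero in 1 line and highest in another, with 1 point for each library (filled for total and open for cytoplasmic RNA) and a bar for the mean and SD of 4 libraries, 3 for U-2 OS cytoplasmic RNA. ZNF528, ZNF331, ZNF470, ZNF420 and ZNF667 lie at or near 0 in both A-431 fractions and ZNF431 in both U-2 OS fractions.

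Several of the A-431 genes were neighbours. The runs that follow were picked after the values were seen. ZNF582, ZNF583, ZNF667, ZNF471 and ZNF470 lie in a row at chr19:56887215-57100279 in cluster 9, over 213 kb. Their CPM summed to 0.0527 in A-431 total RNA, against 63.96 CPM in U-251MG and 40.5 CPM in U-2 OS. ZFP28, a KRAB zinc finger gene without a ZNF symbol inside this run, was at 0.0103 CPM in A-431, against 9.40 CPM in U-251MG and 7.35 CPM in U-2 OS.

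A second run in A-431 was ZNF829, ZNF568 and ZNF420 in cluster 6 (chr19:37379026-37621270, 242 kb), with a sum of 0.0184 CPM, against 28.8 CPM in U-251MG and 34.0 CPM in U-2 OS. ZNF790, near this run, had 0 counts in A-431 and 6.96 and 5.36 CPM in U-251MG and U-2 OS. The third was ZNF610, ZNF880 and ZNF528 in cluster 8 (chr19:52839496-52921665, 82.2 kb), with 0.0536 CPM, against 42.5 CPM in U-251MG and 16.96 CPM in U-2 OS. Within it, ZNF880 was already low in U-2 OS at 0.161 CPM, against 4.52 CPM in U-251MG.

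In U-251MG the only pair of neighbours of this kind was ZNF135 and ZNF329 in cluster 9, summing to 0.00851 CPM, against 3.15 CPM in A-431 and 12.1 CPM in U-2 OS. ZNF135 alone was also at 0 counts in A-431, against 8.16, 7.91, 8.76 and 7.90 CPM in U-2 OS, and more than 20% of its exon bases are shared with another gene. ZSCAN18, which lies between them, had 0 counts in A-431 and 0.0112 CPM in U-251MG, against 11.3 CPM in U-2 OS. Other C2H2 genes of chromosome 19 outside the ZNF names showed such patterns too: ZFP82 had 0 counts in A-431 total RNA, against 4.51 CPM in U-251MG and 4.14 CPM in U-2 OS, and the imprinted gene PEG3 was at 0 and 0.00898 CPM in A-431 and U-251MG, against 19.98 CPM in U-2 OS.

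The cell lines were then compared in total RNA by edgeR's quasi-likelihood test, with p-values adjusted over all 18610 genes tested and a threshold of 0.001. Of the 227 members, 204 passed the filter on low counts and 23 did not. Between A-431 and U-2 OS, 48 members were higher and 81 lower in A-431, while 65.6% of all genes tested were called (30.8% higher, 34.8% lower), and the median log2 difference was -0.17, against -0.07 over all genes. Between A-431 and U-251MG, 28 were higher and 84 lower in A-431, with 57.8% of all genes called (29.3% higher, 28.5% lower), and the medians were -0.28 for the members and 0.00 for all genes. Between U-251MG and U-2 OS, 55 were higher and 36 lower in U-251MG, with 62.5% of all genes called (28.3% higher, 34.2% lower), and the medians were 0.14 and -0.09. The 3 comparisons share libraries, and the overall share of called members was near that of all genes in the first and second and below it in the third.

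Calls with a log2 difference of at least 1 numbered 24 higher and 54 lower for A-431 against U-2 OS, where 38.8% of all genes were called (16.4% higher, 22.4% lower). They were 11 higher and 58 lower for A-431 against U-251MG, with 31% of all genes called (16.4% higher, 14.6% lower), and 32 higher and 16 lower for U-251MG against U-2 OS, with 35.7% of all genes called (13.6% higher, 22.1% lower). Leaving out any 1 library left 43 to 49 higher and 76 to 82 lower members for A-431 against U-2 OS, 25 to 30 and 77 to 87 for A-431 against U-251MG, and 50 to 58 and 30 to 39 for U-251MG against U-2 OS.

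**Figure D3:**
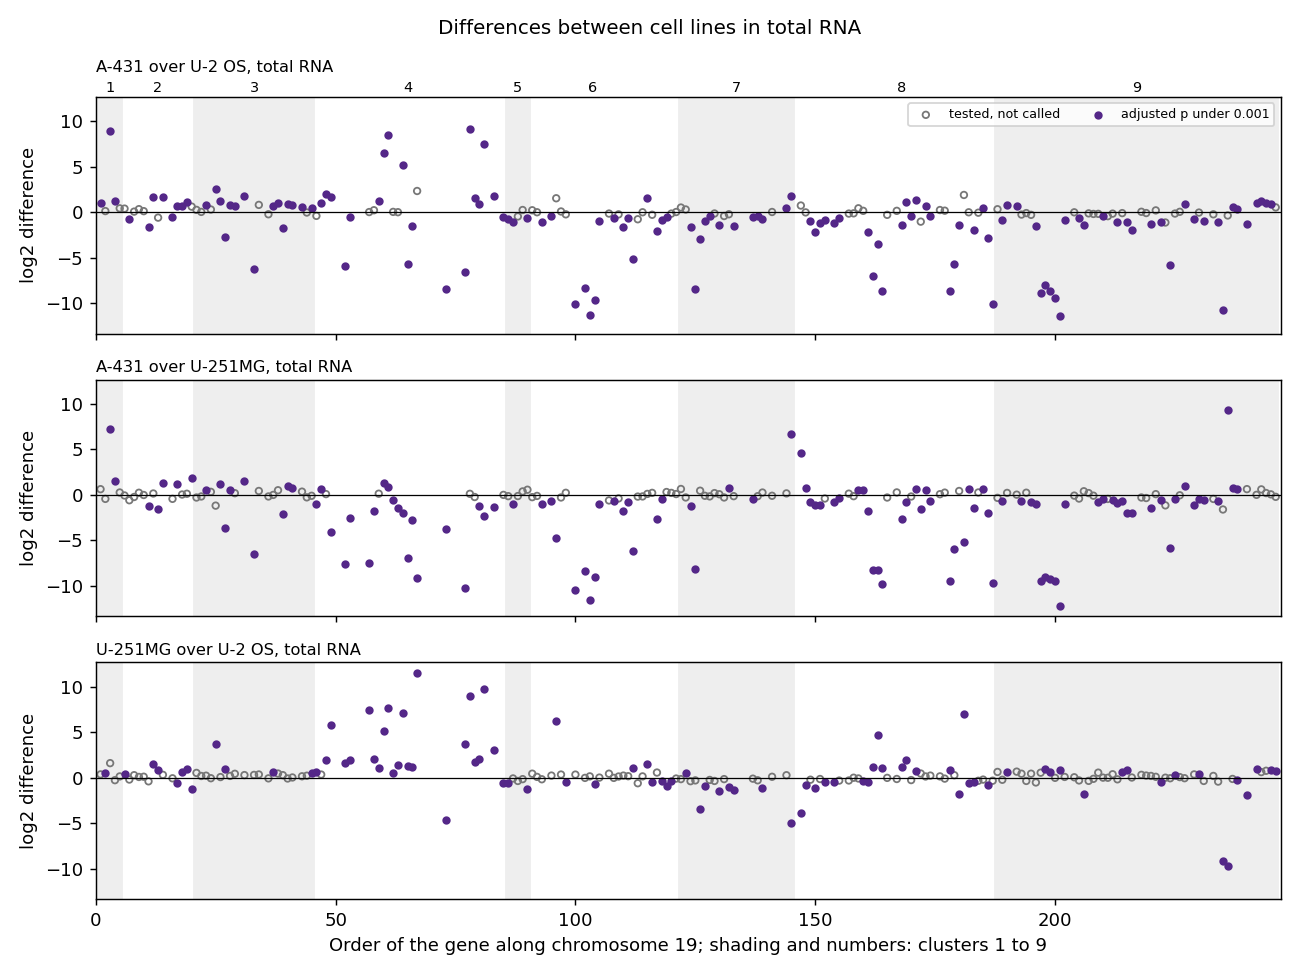
Log2 differences in total RNA (y axis) of the 204 members tested, in their order along chromosome 19 (x axis), for A-431 over U-2 OS, A-431 over U-251MG and U-251MG over U-2 OS. Filled points passed an adjusted p of 0.001. In the lowest panel 21 of the 23 tested members of cluster 4 lie above 0 and are called, and in the middle panel 16 of them are called below 0.

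The position of the calls differed by cluster. Cluster 4 was singled out after its values were seen. There, 21 members were higher and 1 (ZNF492) lower in U-251MG than in U-2 OS, of 23 tested, with a median log2 difference of 2.02, and 10 members in the files were not tested. Among the 13 that had at least 1 CPM in both lines, 12 were higher and none lower, with a median of 1.64. Against U-251MG, 3 members were higher and 16 lower in A-431 (median -1.82), and among the 15 with at least 1 CPM in both lines A-431 was higher for 3 and lower for 8 (median -0.54). Against U-2 OS 12 were higher and 6 lower in A-431 (median 0.96, or 0.10 with no filter on low counts), and among the 11 with at least 1 CPM in both 6 were higher and 2 lower (median 0.87).

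The summed level of the 33 counted genes of cluster 4 was 187 ± 8.94 CPM in A-431 total RNA, 288 ± 21.7 CPM in U-251MG and 63.9 ± 2.06 CPM in U-2 OS (SD, n = 4 each). The lowest U-251MG library (264 CPM) lay above the highest A-431 library (197 CPM), and that line lay above all U-2 OS libraries. Cytoplasmic RNA gave 176 ± 9.78, 249.8 ± 23.6 and 63.1 ± 3.03 CPM (SD, n = 4, 4 and 3). Of the 22 members with at least 1 CPM in some line, 15 had their highest level in U-251MG, 6 in A-431 and 1 in U-2 OS. No other protein-coding gene within the cluster's span passed the filter, so there was no neighbour of another kind to set beside it.

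The difference between U-251MG and U-2 OS was spread over the genes of cluster 4. In mean CPM, ZNF90 was 25.03 higher in U-251MG, ZNF254 was 24.7 and ZNF714 was 23.95 higher, the 3 largest parts, named after their values were seen. Some genes of the cluster were near zero in 1 or 2 lines. ZNF43 (chr19:21987752-22034927) had 0, 0.0431, 0 and 0.0428 CPM in A-431, 12.7, 13.3, 14 and 16.5 CPM in U-251MG and 0 counts in U-2 OS, so that it was seen at a level above 1 CPM only in U-251MG. ZNF681 had 2.63, 2.54, 2.83 and 2.10 CPM in A-431 and 12.9, 12.4, 11.6 and 14.9 CPM in U-251MG, against a single count over the 4 U-2 OS libraries. ZNF724 had 13.1, 11.6, 13.5 and 14.5 CPM in A-431 and 10.6, 11.9, 10.9 and 14.9 CPM in U-251MG, values that overlap, against 2 counts in U-2 OS. The exception, ZNF492, had 1 count over the A-431 libraries and 0.208, 0.204, 0.0449 and 0.287 CPM in U-251MG, against 4.85, 5.10, 5.07 and 4.61 CPM in U-2 OS.

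Further members of the cluster, chosen after their values were seen, had levels that could be compared in more than 1 line. ZNF91, known as a repressor of SVA and L1 retrotransposons, had 20.96, 20.1, 22.5 and 23.1 CPM in A-431 and 20.6, 26.5, 25.6 and 29.0 CPM in U-251MG, against 7.30, 6.26, 7.87 and 7.29 CPM in U-2 OS. Its log2 difference was 1.54 (SE 0.106, edgeR adjusted p = 6.9e-13) for A-431 against U-2 OS and 1.78 (SE 0.105, adjusted p = 4.4e-14) for U-251MG against U-2 OS, and A-431 and U-251MG overlapped (-0.23, adjusted p = 0.0340). ZNF93, a repressor of L1 elements, had at most 2 counts in any library of total RNA. ZNF254 differed between U-251MG and U-2 OS by 3.08 (SE 0.135, edgeR adjusted p = 8.9e-17), with 24.1, 27.7, 26.2 and 33.3 CPM in U-251MG, against 2.40, 3.11, 3.19 and 3.93 CPM in U-2 OS. ZNF714 was highest in A-431, at 61.5, 54.6, 60.5 and 58.5 CPM, with 24.9, 24.7, 24.01 and 24.9 CPM in U-251MG and 0.558, 0.663, 0.532 and 0.848 CPM in U-2 OS, 3 ranges that do not meet.

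In clusters 5 to 9 more members were lower than higher in A-431 against each of the other lines. In cluster 6 this line had 1 member higher and 11 lower than U-2 OS, and 0 higher and 12 lower than U-251MG, of 22 tested. In cluster 8 these were 4 and 19, and 6 and 19, of 35 tested, and in cluster 9 they were 9 and 22, and 4 and 25, of 52. Cluster 7 had 2 higher and 10 lower than U-2 OS, and 2 and 3 against U-251MG, of 18 tested, and cluster 5 had 0 and 3, and 0 and 1, of 5. Clusters 6, 8 and 9 hold the runs of genes near zero in A-431 described above. Among the members with at least 1 CPM in both lines, A-431 had 0 higher and 6 lower than U-251MG of 15 in cluster 6, 6 and 11 of 26 in cluster 8, and 3 and 19 of 42 in cluster 9. Against U-2 OS these were 1 and 6 of 15, 4 and 13 of 27, and 9 and 15 of 43. The other protein-coding genes inside cluster 9 had 1 higher and 16 lower in A-431 than in U-2 OS of 23 tested, with a median of -3.66. Against U-251MG they had 1 higher and 6 lower, with a median of -0.28. These 23 were among 51 listed and were not restricted to genes with at least 1 CPM in both lines. PEG3 and ZSCAN18, for example, had 0 counts in A-431 total RNA. Cluster 3 ran the other way: 12 members were higher and 3 lower in A-431 than in U-2 OS of 21 tested, and 11 higher and 0 lower of the 16 with at least 1 CPM in both.

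The differences of neighbouring members were positively but modestly correlated. Spearman's rho between a tested member and the next tested one was 0.34 for A-431 against U-2 OS, 0.32 for A-431 against U-251MG and 0.38 for U-251MG against U-2 OS, over 189 pairs that share libraries. For the other protein-coding genes of chromosome 19 it was 0.19, 0.12 and 0.25 over 774 pairs. These values are descriptions, since genes are not replicates, and the part of base composition in them was not tested.

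Some members were higher in A-431 than in another line. ZNF556 had 2.30, 2.50, 2.15 and 2.27 CPM in A-431, against 1 count over the U-251MG libraries and 0 in U-2 OS. ZNF114 had 3.37, 3.58, 3.84 and 3.46 CPM in A-431 and 0, 0, 0.0897 and 0.431 CPM in U-251MG, while U-2 OS had 2.83, 1.70, 2.02 and 1.90 CPM, below every A-431 library. ZNF296, which encodes a zinc finger protein of pluripotent cells in the mouse, had 2.22, 3.58, 2.25 and 2.18 CPM in A-431, against 0, 0, 0.0897 and 0 CPM in U-251MG and 1.03, 0.373, 0.425 and 1.15 CPM in U-2 OS, below every A-431 library. ZNF274, a member of cluster 9 whose protein brings SETDB1 to the 3' ends of zinc finger genes, was named for that role: it had 30.3, 31.2, 31.4 and 30.9 CPM in A-431, 18.9, 18.4, 18.9 and 20.02 CPM in U-251MG and 19.6, 21.1, 20.4 and 19.6 CPM in U-2 OS. A-431 stood above both other lines, by 0.70 (SE 0.0745, edgeR adjusted p = 4.5e-09) over U-251MG and 0.57 (SE 0.0739, adjusted p = 1.2e-07) over U-2 OS.

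The partners of KRAB proteins were taken as a list of 16 genes, all tested. In A-431 against U-2 OS 6 were higher and 5 lower, in A-431 against U-251MG 3 and 5, and in U-251MG against U-2 OS 5 and 6. These are 68.8%, 50% and 68.8% of the list, against 65.6%, 57.8% and 62.5% of all genes tested, so the list stood near all genes. Their order across the lines differed by gene. TRIM28 averaged 367 ± 43.2 CPM in A-431 total RNA, 317 ± 16.2 CPM in U-251MG and 215 ± 14.2 CPM in U-2 OS (SD, n = 4 each). CHD3, picked after its values were seen, was lowest in A-431, at 157 ± 4.29, 317 ± 23.8 and 364 ± 21.9 CPM in the same order.

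The total and cytoplasmic RNA of each line were then compared in the same way, as the log2 ratio of total over cytoplasmic RNA. In A-431, 1 of 179 members tested was higher and 9 were lower in total RNA, while 19.7% of all genes tested were called (10.2% higher, 9.51% lower). In U-251MG, 1 of 201 was higher and 5 were lower, with 12.9% of all genes called (5.93% higher, 6.98% lower). In U-2 OS, 1 of 194 was higher and 3 were lower, with 8.36% of all genes called (4.75% higher, 3.61% lower). The median ratio of the members was -0.06, 0.00 and -0.07 in A-431, U-251MG and U-2 OS, against -0.01, 0.00 and 0.00 over all genes tested, and 48, 26 and 33 members were not tested. At an unadjusted p of 0.05, 27 were higher and 46 lower in A-431, 36 higher and 45 lower in U-251MG, and 14 higher and 37 lower in U-2 OS. These are 40.8%, 40.3% and 26.3% of the members tested, against 56.7%, 55.6% and 39.4% of all genes tested.

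The sizes were small. Of the members with at least 1 CPM, 111 of 165 in A-431 (67.3%), 114 of the 189 in U-251MG (60.3%) and 148 of the 183 in U-2 OS (80.9%) had a log2 ratio under 0.25 in size. The extremes ran from -0.72 (ZNF814) to 0.48 (ZNF813) in A-431, from -0.82 (ZNF579) to 0.56 (ZNF829) in U-251MG and from -0.56 (ZNF446) to 0.66 (ZNF534) in U-2 OS, members named after their values were seen. Within the middle range of the members' levels, 5.62% of members and 16.5% of all genes were called in A-431. The same 2 shares were 2.97% and 11.7% for U-251MG, and 2.08% and 4.66% for U-2 OS. ZNF genes of other chromosomes had 15 higher and 28 lower of 209 in A-431, 8 and 23 of 213 in U-251MG and 7 and 9 of 232 in U-2 OS.

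**Figure D4:**
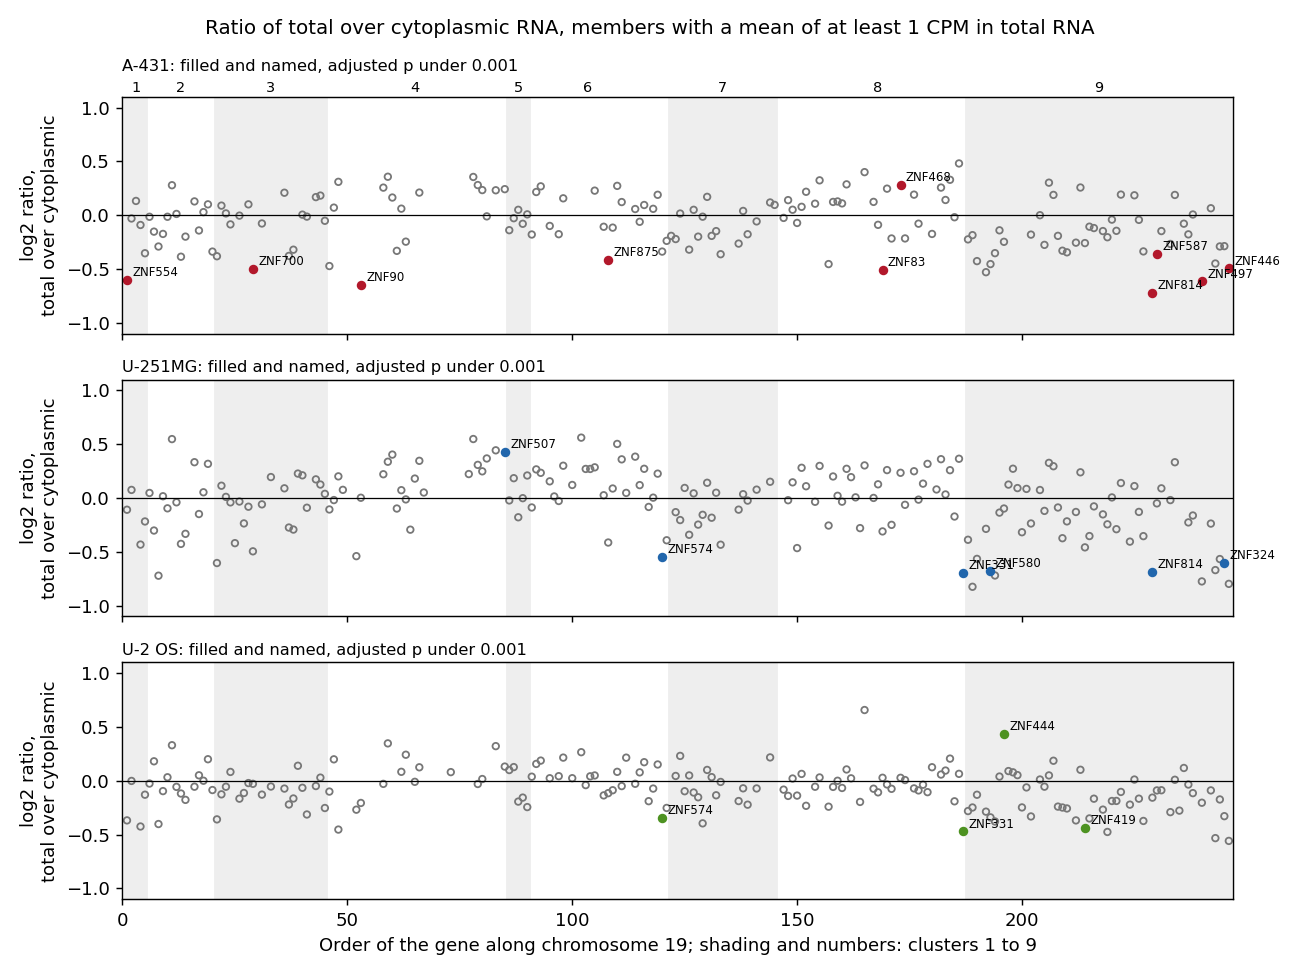
Log2 ratio of total over cytoplasmic RNA (y axis) for the members with at least 1 CPM in total RNA, in their order along chromosome 19 (x axis), by line. Filled, named points passed an adjusted p of 0.001: 10 genes in A-431, 6 genes in U-251MG and 4 genes in U-2 OS. Ratios of at least 0.5 in size are shown by 6, 19 and 3 genes in the same order of lines, and not all of these passed.

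The ratio moved with base composition. Over the members tested, Spearman's rho between GC content and the ratio was -0.39 in A-431 (n = 179), -0.54 in U-251MG (n = 201) and -0.45 in U-2 OS (n = 194), over genes of the same libraries. Members of 40% to 45% GC had medians of 0.00, 0.05 and -0.05 in A-431, U-251MG and U-2 OS, and those of at least 60% GC (15, 14 and 14 genes) had -0.34, -0.56 and -0.28. The trend was not particular to the members. All genes tested had medians of 0.18, 0.22 and 0.10 at 40% to 45% GC, above those of the members. At 60% GC or more all genes had -0.37, -0.55 and -0.24. Members with a KRAB-A-like stretch had medians of -0.01, 0.04 and -0.06, and those without one -0.21, -0.25 and -0.14. The other protein-coding genes of chromosome 19 had medians of -0.29, -0.42 and -0.17, with 1 higher and 153 lower of 688 tested in A-431. The part that base composition plays in these ratios was not tested beyond an offset for GC content, given in the closing section.

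No member was called in all 3 lines, and ZNF814, ZNF331 and ZNF574 were called in 2. ZNF814 (chr19:58360099-58400442) had 3.29, 3.92, 4.72 and 5.09 CPM in total RNA of A-431, against 7.56, 6.15, 7.24 and 7.32 CPM in its cytoplasmic RNA, a log2 ratio of -0.72 (SE 0.127, edgeR adjusted p = 0.000219). In U-251MG it had 8.57, 8.79, 9.02 and 9.74 CPM in total RNA, against 13.2, 14.03, 14.7 and 15.9 CPM in cytoplasmic RNA, a ratio of -0.69 (SE 0.0926, edgeR adjusted p = 0.000171). The fractions did not overlap in either line. The A-431 call was lost without total RNA library 9 and the U-251MG call without total RNA library 6, with ratios of -0.62 to -0.81 and -0.64 to -0.74 as single libraries were left out.

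ZNF331 had 22.9, 20.9, 23.7 and 16.1 CPM in U-251MG total RNA, against 32.3, 34.9, 32.8 and 34.5 CPM in cytoplasmic RNA, a ratio of -0.70 (SE 0.111, edgeR adjusted p = 0.000383). In U-2 OS it had 22.8, 27.1, 25.3 and 25.9 CPM in total RNA, against 35.7, 37.9 and 32.9 CPM in cytoplasmic RNA, a ratio of -0.47 (SE 0.0713, edgeR adjusted p = 6.7e-06). Total RNA lay below cytoplasmic RNA in both lines without overlap. The U-2 OS call stayed with any 1 library left out, and the U-251MG call was lost without total RNA library 6 or cytoplasmic library 17, 18 or 20.

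ZNF574 (chr19:42572629-42585704), with 18 fingers and no KRAB-A-like stretch, had 19.8, 22.7, 21.9 and 20.3 CPM in U-251MG total RNA, against 31.9, 31.1, 28.6 and 31.6 CPM in cytoplasmic RNA. Its ratio was -0.55 (SE 0.0762, edgeR adjusted p = 0.000204), and in U-2 OS it was -0.34 (SE 0.0691, adjusted p = 0.000258). Of the 7 fits that left out 1 U-2 OS library 2 kept its call there. In A-431, where ZNF700 (chr19:12035883-12061588) had 18.1, 16.2, 18.6 and 16.8 CPM in total RNA, against 23.5, 24.3, 27.4 and 23.8 CPM in cytoplasmic RNA, the ratio was -0.50 (SE 0.0759, edgeR adjusted p = 6.2e-05). ZNF700, singled out after its values were seen, was the only A-431 call that stayed with any 1 library left out.

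The members higher in total RNA were ZNF468 in A-431 (0.28), ZNF507 in U-251MG (0.43) and ZNF444, a SCAN-domain gene, in U-2 OS (0.44). ZNF444 had 14.3, 16.4, 13.8 and 14.2 CPM in U-2 OS total RNA, against 11.3, 11.3 and 10.3 CPM in cytoplasmic RNA, which did not overlap. Each of these calls was lost when some single library was left out. The remaining lower calls were ZNF554, ZNF90, ZNF875, ZNF83, ZNF587, ZNF497 and ZNF446 in A-431, between -0.36 and -0.65, ZNF580 (-0.67) and ZNF324 (-0.60) in U-251MG, and ZNF419 (-0.44) in U-2 OS. Correcting for GC content by an offset kept 5 of the 10 calls in A-431, 1 of the 6 in U-251MG and 3 of the 4 in U-2 OS. Under it ZNF446 was at -0.19 (edgeR adjusted p = 0.137) and ZNF497 at -0.25 (adjusted p = 0.176) in A-431. In U-251MG ZNF574 was at -0.08 (adjusted p = 0.509) and ZNF324 at -0.19 (adjusted p = 0.157). Of the calls higher in total RNA, ZNF468 (0.04) and ZNF507 (0.09) were lost under the offset, while ZNF444 was kept (0.61). ZNF574 was lost in U-2 OS too (-0.14). ZNF331 was kept in U-2 OS (-0.44) but not in U-251MG (-0.64). ZNF814 was kept in A-431 (-0.80) and U-251MG (-0.77).

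Of the 20 calls in the 3 lines, 2 stayed with any 1 library left out. Without A-431 total RNA library 9, 1 member remained lower in A-431, and without total RNA library 12, 3 did, while without cytoplasmic libraries 22 or 23, 4 did. Without U-251MG total RNA library 6, or cytoplasmic library 18 or 20, 1 was lower in U-251MG, without cytoplasmic library 17, 3 were, and 1 was higher only without total RNA library 8 or cytoplasmic library 19. In U-2 OS 1 was lower without total RNA library 1 or 4 or cytoplasmic library 14 or 15, 7 without total RNA library 3 and 2 without total RNA library 2 or cytoplasmic library 16, and 0 were higher without total RNA library 2 or any 1 cytoplasmic library. In A-431 0 were higher without any single library but total RNA library 10, where 2 were. Flow cell A held only 2 of the U-251MG and 1 of the U-2 OS cytoplasmic libraries used, so that fits restricted to it, in which no member was called, have little power and say nothing about the stability of the calls.

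**Figure D5:**
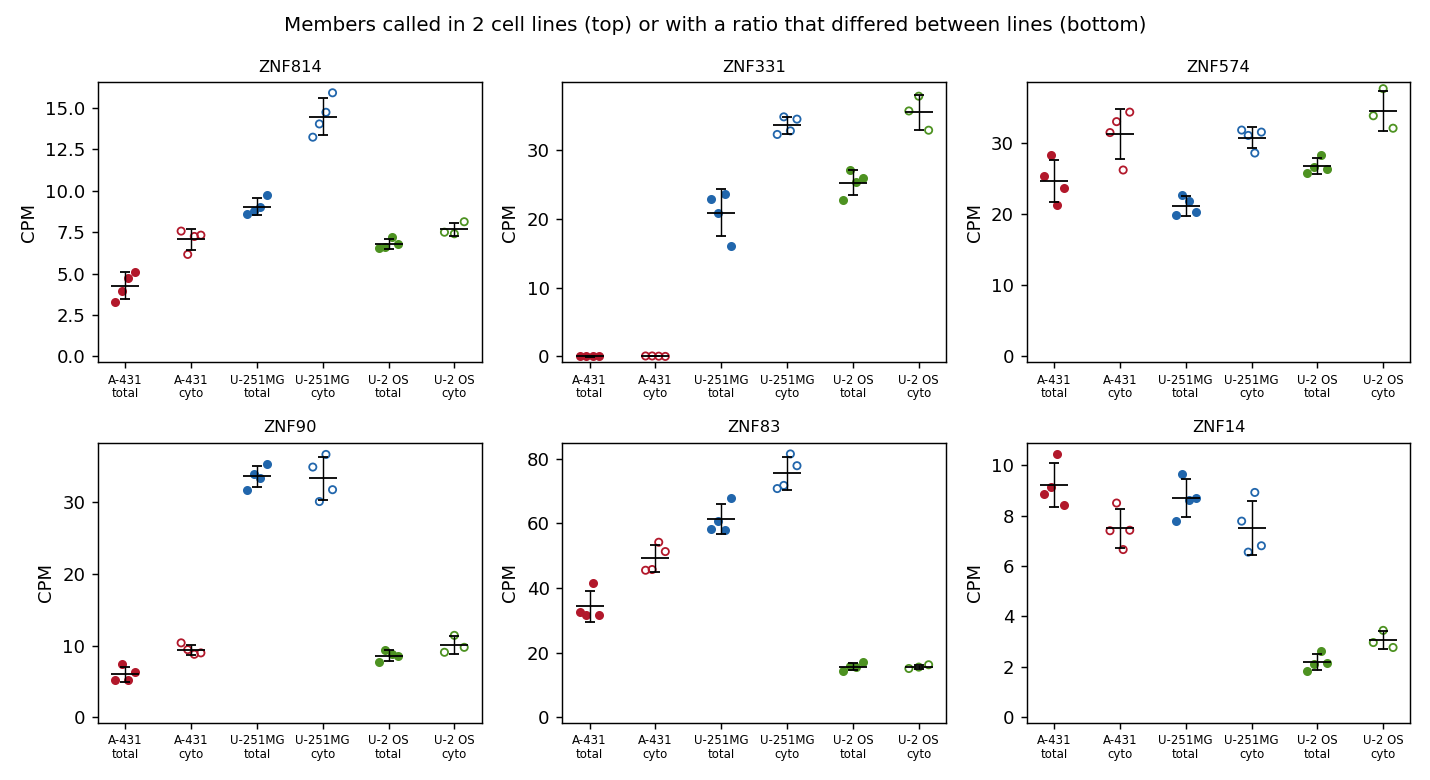
CPM by library (filled for total RNA, open for cytoplasmic RNA, with a bar for the mean and SD of 4 libraries, 3 for U-2 OS cytoplasmic RNA) of the members called in 2 lines and of those whose ratio differed between lines. Total RNA lies below cytoplasmic RNA for ZNF814 in A-431 and U-251MG and for ZNF331 in U-251MG and U-2 OS, and for ZNF14 total RNA lies below cytoplasmic RNA in U-2 OS, while the fractions overlap in A-431.

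Whether the ratio itself differed between lines was tested as an interaction over all groups (211 members tested, adjusted p under 0.05). Between A-431 and U-2 OS, 1 member was higher and 1 lower, where 2.12% of all genes were called (0.947% higher, 1.17% lower). ZNF83 (chr19:53097313-53193812) had 32.4, 31.7, 41.4 and 31.7 CPM in A-431 total RNA, against 45.5, 45.7, 54.1 and 51.3 CPM in cytoplasmic RNA, and 14.2, 15.9, 15.5 and 16.95 CPM in U-2 OS total RNA, against 15.1, 15.5 and 16.2 CPM in cytoplasmic RNA. The fractions were apart in A-431 and overlapped in U-2 OS, a difference in log2 ratio of -0.55 (SE 0.127, edgeR adjusted p = 0.0150), which was lost only without U-2 OS cytoplasmic library 14.

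ZNF14 (chr19:19821281-19843921) had 8.88, 9.14, 10.5 and 8.43 CPM in A-431 total RNA, against 7.40, 8.50, 6.66 and 7.42 CPM in cytoplasmic RNA, and 1.85, 2.11, 2.62 and 2.17 CPM in U-2 OS total RNA, against 2.96, 3.45 and 2.77 CPM in cytoplasmic RNA. The fractions overlapped in A-431 and were apart in U-2 OS, and the ratio was called in neither line. The difference in log2 ratio was 0.75 (SE 0.192, edgeR adjusted p = 0.0313), lost in 8 of 23 fits that left out 1 library. Between A-431 and U-251MG, where 0.16% of all genes were called (0.12% higher, 0.0401% lower), 0 members were higher and 1 was lower. It was ZNF90 (chr19:20188803-20237885), with 5.18, 7.37, 5.18 and 6.29 CPM in A-431 total RNA, against 10.4, 9.43, 8.78 and 8.98 CPM in cytoplasmic RNA, while the U-251MG fractions overlapped at 31.7, 34.0, 33.5 and 35.4 CPM in total RNA, against 34.9, 30.1, 36.7 and 31.8 CPM in cytoplasmic RNA. The difference was -0.69 (SE 0.141, edgeR adjusted p = 0.0233), lost in 7 of 23 such fits. ZNF14 and ZNF90 both lie in cluster 4. Between U-251MG and U-2 OS, where 1.67% of all genes were called (0.907% higher, 0.762% lower), edgeR called 0 members (20 higher and 12 lower at an unadjusted p of 0.05, 15.2% of the members, against 19.3% of all genes) and DESeq2 called 3 higher and 1 lower. In A-431 both fractions also differ in flow cell, and the part of the flow cell in these differences cannot be told apart from the fraction.

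Among the partners of KRAB proteins, the ratio was called higher for 4 and lower for 0 of 16 in A-431, for 4 and 1 in U-251MG, and for 3 and 1 in U-2 OS. These are 25%, 31.3% and 25% of the list, against 19.7%, 12.9% and 8.36% of all genes tested, shares of only 16 genes. SMARCAD1, a chromatin remodeller that binds TRIM28, was called in all 3 lines, at ratios of 0.40 (A-431), 0.46 (U-251MG) and 0.28 (U-2 OS). ATF7IP, which stabilises SETDB1, was called in A-431 (0.48) and U-251MG (0.59) and not in U-2 OS (0.07). TRIM28 itself was lower in total RNA, at -0.49 in U-251MG (edgeR adjusted p = 0.000209) and -0.24 in U-2 OS (adjusted p = 0.000782), and at -0.30 in A-431 (adjusted p = 0.00201), which did not pass.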

How the data were processed

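The libraries were sequenced from poly(A) RNA of total and cytoplasmic fractions; the labels give Trizol extraction and paired-end reads, whereas the study's methods describe RNeasy and single reads. Alignment by the authors used TopHat 1.1.4 on hg19, with SAMtools 0.1.8, and HTSeq 0.4.6 gave the number of uniquely placed reads per Ensembl gene, ignoring strand; these deposited counts were used as they stand, without the 6 entries per file that name no gene. The deposited RPKM values were made by the authors with rpkmforgenes, and served only for describing levels. CPM are counts over the TMM-scaled library size.

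Groups were compared with edgeR 4.0.16 (filterByExpr, TMM, quasi-likelihood F-test in its robust form, p-values adjusted by Benjamini-Hochberg over all genes tested) in R 4.3.3, at an adjusted p of 0.001 between fractions and lines and of 0.05 for differences in ratio; the test was checked on simulated data. The alternatives were RLE scaling, DESeq2 1.42.0, no filter, other thresholds, one model, thinning, a GC offset, flow cell A, cytoplasmic RNA, the 24th library, a replicate block and each library left out.

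Named members were those with the largest called fraction ratio or line difference in each comparison, the highest RPKM overall and per cluster, a called difference in ratio, or near-zero counts in 1 line and the highest level in another. Members and lists were chosen with earlier results of these data known. Motifs and unique stretches came from the GRCh37 sequence and annotation, where 42986 of the 51715 genes were found. A marker gene of the list is not reported here.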

Additional observations from a re-analysis of the deposited data

Results flagged for a closer look

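Among the named members with at least 1 CPM in a group of 4 libraries, 169 groups were examined for a library apart from the other 3. Only 4 were found, a smaller share than the 1 in 20 or so that chance gives. ZNF83 was at 41.4 CPM in A-431 total RNA library 11, against 31.7 to 32.4 CPM in the others, and ZNF296 was at 3.58 CPM in A-431 total RNA library 10, against 2.18 to 2.25 CPM. ZNF114 was at 4.74 CPM in A-431 cytoplasmic library 24, against 3.16 to 3.39 CPM. ZNF507 was at 69.8 CPM in U-251MG total RNA library 8, against 59.9 to 60.5 CPM, and this member is the only one called higher in total RNA of that line. Its call stayed without library 8, at a log2 ratio of 0.38.

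The ratio of total over cytoplasmic RNA differed between lines for 3 members. By the interaction test of edgeR, ZNF14 had a log2 ratio 0.75 higher in A-431 than in U-2 OS (SE 0.192, adjusted p = 0.0313), and ZNF83 one that was lower, by -0.55 (SE 0.127, adjusted p = 0.0150). ZNF90 was lower in A-431 than in U-251MG, by -0.69 (SE 0.141, adjusted p = 0.0233). In A-431 the fractions were run on different flow cells, and the part of the flow cell was not tested.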

How the results depend on the processing

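The labels number the libraries through the whole series, but the study's read table gives numbers that total and cytoplasmic libraries share. Their deviations from the group means correlated at -0.198 to 0.209 over 11 pairs, and not every library correlated best with its own number, so the numbers were not taken to pair the samples. A replicate block by these numbers, chosen after seeing the data, gave 3 higher and 6 lower members in U-2 OS, 0 higher in U-251MG, 0 higher and 2 lower for the difference in ratio between A-431 and U-2 OS (ZNF14 at 0.68, adjusted p = 0.0726) and 1 higher between U-251MG and U-2 OS. No member's direction among the named results reversed under any alternative, and no count was moved by over 1.5 times by RLE scaling or by the 24th library between fractions or lines.

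Between fractions, in A-431 DESeq2 called 2 higher, no filter gave 17 lower, an adjusted p of 0.05 gave 19 higher and 38 lower, thinning and one model over all groups each gave 0 higher, and the GC offset gave 0 higher and 17 lower. In U-251MG these were 4 and 12 with DESeq2, 6 and 8 with no filter, 27 and 37 at an adjusted p of 0.05, 0 and 3 with the GC offset, 0 and 0 on flow cell A (2 cytoplasmic libraries), and 9 and 14 with one model. In U-2 OS they were 5 lower with no filter, 8 and 21 at 0.05, 3 higher with the GC offset, 0 and 0 with one model, and 0 and 0 on flow cell A, where the lone cytoplasmic library was assumed to vary like the total RNA libraries and a call could hardly be made. With single libraries left out, higher and lower members ranged over 0 to 2 and 1 to 10 in A-431, 0 to 1 and 1 to 7 in U-251MG, and 0 to 1 and 1 to 7 in U-2 OS. The cause of these shifts was not tested.

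Between lines, requiring a log2 difference of at least 1 gave 24 higher for A-431 against U-2 OS, 11 higher for A-431 against U-251MG, and 32 higher and 16 lower for U-251MG against U-2 OS. With single libraries left out, counts ranged over 43 to 49 higher and 76 to 82 lower, 25 to 30 and 77 to 87, and 50 to 58 and 30 to 39 in these comparisons. For the difference in ratio, DESeq2 gave 2 lower for A-431 against U-2 OS, and for U-251MG against U-2 OS RLE scaling gave 2 higher, DESeq2 3 higher and 1 lower, and no filter 2 higher. The ranges with single libraries left out were 0 to 1 and 0 to 3, 0 to 0 and 0 to 1, and 0 to 5 and 0 to 1.

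Counts near 0 bound a level and do not show that a gene is silent, and intervals on them cover counting error only. Reads that fit several members equally well were not counted, so levels of close relatives are lower bounds.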
